A study of Capra hircus with 6 samples.

Results

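The regions described here are stretches of goat chromatin that the authors listed in a comparison of accessibility between lactation and the dry period and that lie at the ends of genes for long noncoding RNAs (lncRNAs). A region belonged when its centre lay no more than 1000 bp from either end of an annotated lncRNA gene and more than 3000 bp from every protein-coding gene end. There were 183 such regions among 30714 regions in all, of which 29978 lay on the 29 numbered chromosomes. They sat at 149 lncRNA genes. A further 170 regions lay within 1000 bp of an lncRNA gene end but were not taken, because a protein-coding gene end was within 3000 bp.

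The assay was ATAC-seq, which marks open chromatin by letting the Tn5 transposase insert sequencing adapters into DNA free of nucleosomes. The libraries came from cells labelled mammary epithelial cells, from mammary gland of *Capra hircus*, with 50000 cells per library, 3 libraries from the lactation period and 3 from the dry period. No breed, age or genotype is given in the labels, and whether each library is from a goat of its own is not stated there. From the series' title, the study asked where chromatin is accessible in lactation, as places to insert transgenes.

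The authors' deposited table gives 1 fold change, p-value and Benjamini-Hochberg false discovery rate (FDR) per region for the whole comparison, and no value per library. Values per sample, read depth and marker levels to check the labelled cell type therefore cannot be given. Each listed region has a p-value of at most 0.001, whether or not its FDR is under 0.05. Every fold change is above 1, and the region names form 2 numbered sets, called set 1 and set 2 here, and each set is read as 1 direction of change. Which set belongs to which period is stated neither in the table nor in the labels, so directions are given by set.

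An lncRNA is a transcript with no long protein-coding reading frame. Its promoter is opened by the same kinds of transcription factors as that of a coding gene, and lncRNA genes often lie beside genes for developmental regulators. Some lncRNAs act on the gene next to them, and others act elsewhere or have no known role. In the mouse mammary gland, the lncRNAs mPINC and Zfas1 are known to affect the growth and differentiation of alveolar cells. Most goat lncRNA genes carry only a LOC identifier and no described function, so the nearest protein-coding gene is given below to say where a region lies, not what it controls.

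Of the 183 regions at lncRNA gene ends, 146 were in set 1 and 37 in set 2. The set 1 share was 79.8% (95% Wilson interval 73.4% to 85.0%, counting error only), against 74.4% of all 29978 listed regions (73.9% to 74.9%). At the authors' FDR under 0.05 there were 64 regions at lncRNA gene ends, or 35.0% of the 183 (28.4% to 42.1%), where 27.8% of all listed regions passed. In set 1, 60 of 146 passed (41.1%), with a background of 34.2% over all listed set 1 regions. In set 2, 4 of 37 passed (10.8%), with a background of 9.24%. The background of each set lies inside the interval of the lncRNA-end share, which ran from 33.4% to 49.2% in set 1 and from 4.29% to 24.7% in set 2. Among the 64 regions that passed, the set 1 share was 93.8% (85.0% to 97.5%), against 91.5% of all 8330 regions that passed.

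The fold changes at lncRNA gene ends had a lower median than all listed regions in both sets, a difference that was not tested. In the authors' deposited table the median was 2.19 in set 1 (interquartile range 1.80 to 2.69), against 2.39 over all set 1 regions (1.87 to 3.23). For set 2 the median in the authors' deposited table was 3.08 (2.38 to 3.78), against 3.59 over all set 2 regions (2.67 to 4.98). Protein-coding gene ends within 1000 bp had lower medians still in the authors' deposited table, at 2.01 in set 1 and 2.11 in set 2. In width, set 1 had a median of 300 bp and set 2 one of 200 bp, the same as over all listed regions of each set. Of the regions at lncRNA gene ends, 58 in set 1 and 19 in set 2 had the smallest listed width of 200 bp, and 5 were 800 bp or wider. Which regions were listed depended on p, and read depth per region is unknown. The part of depth in these fold changes was not tested.

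**Figure D1:**
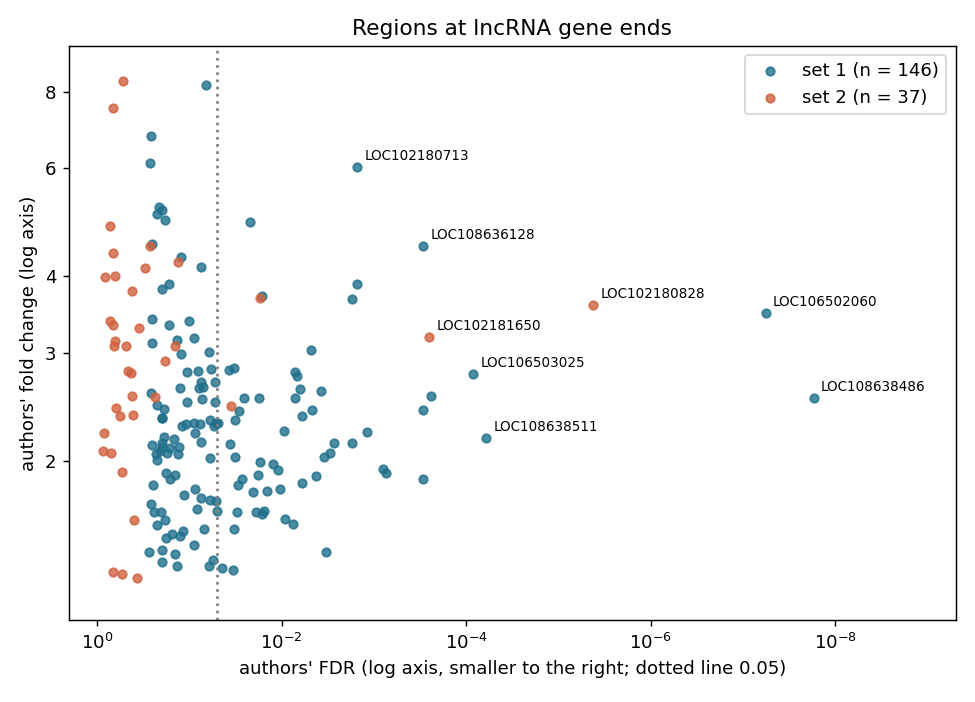
Each point is 1 of the 183 regions at lncRNA gene ends, with the authors' FDR on the horizontal log axis (smaller to the right) and the authors' fold change on the vertical log axis, coloured by set. To the right of the dotted line at an FDR of 0.05 lie 60 set 1 points and 4 set 2 points, and the highest fold changes of both sets, 8.21 in set 1 and 8.33 in set 2, lie to its left.

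Compared with other kinds of gene end, the set 1 share at lncRNA ends lay between that of protein-coding gene ends and that of regions away from both. It was 79.8% at lncRNA gene ends, against 89.6% within 1000 bp of protein-coding gene ends (4055 of 4527; 88.6% to 90.4%). Among 20821 regions over 3000 bp from coding ends and not at an lncRNA end it was 68.0% (67.4% to 68.6%). Ends of tRNA genes, chosen with the same distances and away from lncRNA ends, had 207 of 218 regions in set 1 (interval 91.2% to 97.2%). Pseudogene ends chosen in that way had 78.1% of 64 regions in set 1 (66.6% to 86.5%), an interval that contains the lncRNA value. The lncRNA gene ends with a coding end within 3000 bp had 94.1% of 170 regions in set 1 (89.5% to 96.8%). These differences were not tested, and regions near each other are not independent.

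**Figure D2:**
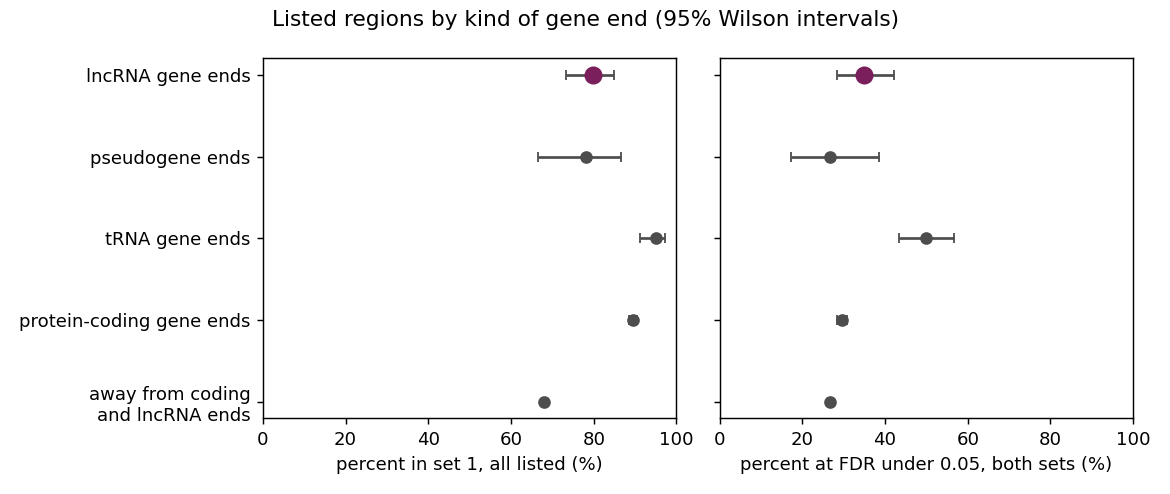
Points give, for each kind of gene end, the share of listed regions in set 1 (left) and the share of listed regions at the authors' FDR under 0.05 (right), in percent, with 95% Wilson intervals. Regions at lncRNA gene ends (larger point, top row) stood at 79.8% and 35.0%, and regions away from coding and lncRNA ends (bottom row) at 68.0% and 26.7%.

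Listed regions of both sets were denser at lncRNA gene ends than in the surrounding sequence. Counting only positions over 3000 bp from coding ends, there were 29.3 set 1 regions per Mb within 1000 bp of an lncRNA gene end (95% Poisson interval 24.7 to 34.4, counting error only). Between 1000 and 20000 bp away there were 14.7 per Mb (13.8 to 15.7). For set 2 the density was 7.42 per Mb within 1000 bp (5.22 to 10.2), against 4.33 per Mb farther out (3.85 to 4.87). The ratio of near to far density was thus 1.99 in set 1 and 1.71 in set 2. The set 1 density was 33.8 per Mb in the first 250 bp, 31.7 at 250 to 500 bp, 27.4 at 500 to 750 bp and 24.0 at 750 to 1000 bp, with intervals that overlap. Past the limit it was 19.8 per Mb (14.5 to 26.4) at 1000 to 1500 bp and 20.7 (15.2 to 27.7) at 1500 to 2000 bp. Both intervals overlap that at 750 to 1000 bp (16.1 to 34.4), so the set 1 bins show no clear step at 1000 bp. The set 2 counts in the same bins were 10, 10, 12 and 5 regions, too few to place a peak. The set 2 density was 3.87 per Mb (1.77 to 7.34) at 1000 to 1500 bp. At 1500 to 2000 bp it was 8.57 per Mb (5.16 to 13.4), no lower than within 1000 bp. The set 2 bins therefore do not tie its higher density to the first 1000 bp. The table lists differing regions, so these are not densities of all open chromatin, and the near and far densities were compared by their intervals alone.

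**Figure D3:**
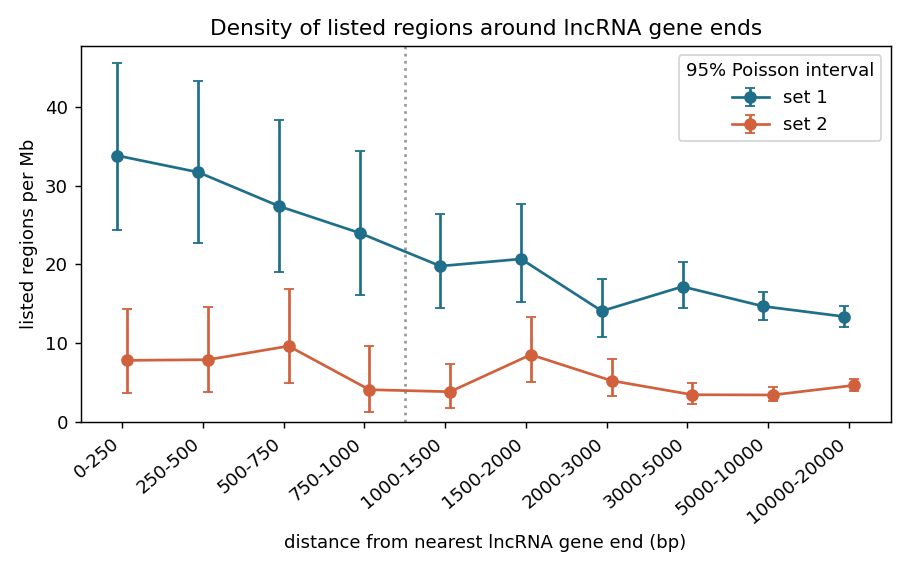
Listed regions per Mb (vertical axis) are plotted by distance from the nearest lncRNA gene end in bp (horizontal axis, unequal bins), for positions over 3000 bp from coding ends, with 95% Poisson intervals. The dotted line marks 1000 bp; set 1 stood at 33.8 per Mb in the first bin and 13.4 per Mb at 10000 to 20000 bp, and set 2 at 7.85 and 4.68 per Mb.

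In set 1 the near density was the higher one both outside and inside coding gene bodies. Outside the bodies of protein-coding genes, set 1 had 29.7 regions per Mb within 1000 bp of an lncRNA end and 14.2 per Mb farther out. Inside coding gene bodies the values were 27.3 per Mb (17.9 to 40.1) and 16.0 per Mb (14.3 to 17.8). For set 2 the values outside coding gene bodies were 7.19 per Mb near (4.81 to 10.3) and 3.63 per Mb farther out (3.10 to 4.23). Inside them they were 8.41 per Mb (3.63 to 16.6) and 5.90 per Mb (4.90 to 7.05), with overlapping intervals. At pseudogene ends chosen with the same distances and away from lncRNA ends, the set 1 density was 4.92 per Mb near (3.65 to 6.49) and 6.35 per Mb farther out (5.89 to 6.84), a ratio of 0.769. At tRNA gene ends it was 75.3 per Mb near (65.4 to 86.3) and 9.68 per Mb farther out.

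Relative to their own gene, 82 of the 183 regions had their centre inside the lncRNA gene and 101 outside. The densities within 1000 bp were 28.0 per Mb inside and 30.6 per Mb outside in set 1, with overlapping intervals (21.8 to 35.4 and 24.1 to 38.2). In set 2 they were 5.27 and 9.53 per Mb, also with overlapping intervals (2.81 to 9.01 and 6.10 to 14.2). The gene table gives no strand, so the start of an lncRNA gene could not be told from its far end. Protein-coding gene bodies held 34 of the 183 regions (18.6%). Of the 4.99 Mb of sequence that met the same distance limits, 0.951 Mb lay inside coding gene bodies, so the regions' share was near that of the sequence. The median distance to a coding gene end was 14837 bp, with 14973 bp in set 1 and 13390 bp in set 2. Among the 20821 regions over 3000 bp from coding ends and not at an lncRNA end, this median was 23226 bp. Of those regions, 50.2% lay inside coding gene bodies. The comparisons made with that class were not matched for either trait. A coding gene end lay within 10000 bp of 73 regions, at 10000 to 50000 bp from 72, and over 50000 bp from 38.

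The 149 genes were 9.34% of 1595 lncRNA genes that had any position allowed by the distances. Their median length was 6246 bp (interquartile range 2991 to 14302), against 6474 bp over all 1758 lncRNA genes on numbered chromosomes (2969 to 15405). Per chromosome, chromosome 19 had the most regions, 20 beside 116 lncRNA genes, and chromosome 24 had 0 beside 37 lncRNA genes. Single regions were found at 118 genes, 2 regions at 28 genes and 3 regions at 3 genes. Regions at 1 gene share a locus and are not independent.

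Where an lncRNA gene had several regions, they were almost always in the same set. Of the 31 such genes, 27 had regions only of set 1 and 2 only of set 2, and 2 genes had both. Another listed region lay within 1000 bp of 60 of the 183 regions, a share of 32.8% (26.4% to 39.9%). Over all listed regions on numbered chromosomes this share was 22.5%. Among regions over 3000 bp from coding ends and not at lncRNA ends it was 18.9% (18.4% to 19.4%). In 58 of those 60 the neighbour was in the same set. Over all listed regions with such a neighbour that share was 96.1%. The genes with both sets were LOC108636368, with both regions inside the gene for the beta-catenin regulator *APC2*, and LOC108633925, near the homeobox gene *UNCX*. At LOC108636368 the authors' deposited table gave a fold of 2.79 to a set 1 region (FDR = 0.0071) and of 1.31 to a set 2 region (FDR = 0.533) at the other end. For LOC108633925 the authors' deposited table gave a fold of 3.33 in set 1 (FDR = 0.164) and of 4.22 in set 2 (FDR = 0.133), on the same side, with 500 bp between the regions.

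Regions at both ends were found at 10 lncRNA genes. LOC108637527, 3069 bp long and near *PTMA*, the prothymosin alpha gene, had 3 set 1 regions on chromosome 2. At its low-coordinate end a region at 16323001 to 16323400, 11602 bp from an end of *PTMA*, differed 1.87-fold by the authors' deposited table (FDR = 0.00029). The 2 regions at its other end had folds of 1.70 and 1.54 in the authors' deposited table, with an FDR of 0.257 and 0.118. LOC102177673, 1989 bp long on chromosome 23, also had 3 set 1 regions, with fold changes of 2.14, 1.94 and 2.52 in the authors' deposited table. Of these the middle one, inside the gene, passed (FDR = 0.00079). LOC106502373, 18416 bp long on chromosome 7, had its 3 set 1 regions in a stretch of 1100 bp at 1 end. The outermost of them, centred 10 bp from the gene end, differed 1.42-fold by the authors' deposited table (FDR = 0.00326). It lay 90111 bp from an end of *EFNA5*, a ligand of Eph receptors.

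At 4 genes 2 regions each passed an FDR of 0.05, all in set 1. No gene had more within 1000 bp of its ends. Of these genes 3 are described here, and their values do not give the range of the 4. Both regions of LOC102188008 and of LOC102182441 were at opposite ends of the gene. For LOC102188008, 16049 bp long on chromosome 3, the fold changes were 2.60 and 2.75 in the authors' deposited table. Another set 1 region inside this gene, 1023 to 1422 bp from its low-coordinate end, passed as well. It had a fold of 2.90 in the authors' deposited table (FDR = 0.000103), and its centre was past the 1000 bp limit. For LOC102182441 on chromosome 19 they were 1.65 and 2.03 in the authors' deposited table. LOC108638511, whose regions lie inside *FBLN5*, a gene for an elastic fibre protein, had folds of 2.53 and 2.18 at 1 end by the authors' deposited table.

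**Figure D4:**
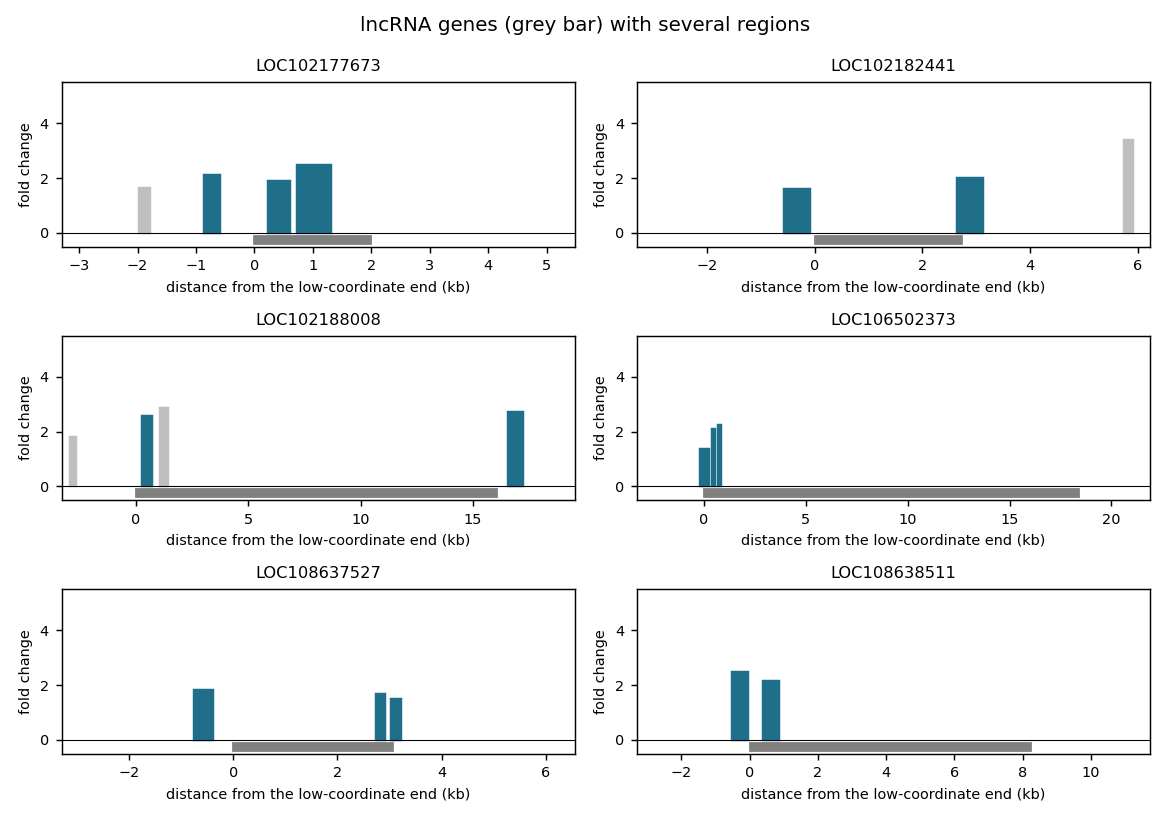
Shown are 6 lncRNA genes with 3 regions, or with 2 regions at an FDR under 0.05, drawn as grey bars under the axis, with distance from the low-coordinate end in kb on the horizontal axis and the authors' fold change on the vertical axis. Blue boxes are the regions at the gene ends, all in set 1, and light grey boxes are other listed set 1 regions within 3000 bp of the gene; the tallest blue box, at LOC102188008, is at 2.75.

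The smallest p of all regions at lncRNA gene ends was that of LOC108638486, a gene of 1703 bp near *SNX6*, a sorting nexin of endosomes. Its set 1 region on chromosome 21 at 44404701 to 44405600 was 2.53-fold in the authors' deposited table (p = 2.33e-13, FDR = 1.72e-08). A tRNA gene, TRNAY-GUA, has an end within 3000 bp of it, and the other region of this lncRNA gene (FDR = 0.257 in the authors' deposited table) is also that near to it; a tRNA gene end was within 3000 bp for these 2 of the 183 regions. Next came LOC106502060, a gene of 93543 bp. Its set 1 region on chromosome 4 at 25450801 to 25451400, inside the gene, differed 3.48-fold by the authors' deposited table (FDR = 5.71e-08). The centre of that region was 118262 bp from the nearest coding gene end.

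Among the other set 1 regions with the smallest p were those beside *TBX3* and *KRT8*. LOC106503025 overlaps *TBX3*, the T-box transcription factor needed for mammary bud formation in the mouse. A region of 1100 bp there, on chromosome 17 at 11066301 to 11067400, differed 2.77-fold by the authors' deposited table (FDR = 8.41e-05); the region is within *TBX3*, 4194 bp from an end. LOC108636128, a gene of 649 bp, lies near *KRT8*, the type II keratin of luminal cells. Its region on chromosome 5 at 26758601 to 26759100, 9317 bp from an end of *KRT8*, had a fold of 4.48 by the authors' deposited table (FDR = 0.000294). Of the LOC108638511 regions, the one with the smaller p, on chromosome 21 at 56060601 to 56061100, had an FDR of 6.08e-05 in the authors' deposited table.

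The entry *B3GNT8* is annotated as an lncRNA in this gene table, although the symbol is that of a coding gene for a glycosyltransferase in other species. Its region on chromosome 18 at 51471101 to 51471700 lies inside *BCKDHA*, a subunit of the enzyme that breaks down branched-chain amino acids, and had a fold of 2.55 by the authors' deposited table (FDR = 0.000239). Coding symbols on lncRNA entries occurred at 4 of the 149 genes. The others were *NRGN*, *TRNP1* and *C23H6orf223*, with an FDR between 0.0596 and 0.198 in the authors' deposited table, so none of these 3 passed. The remaining set 1 regions with the smallest p were at LOC102171494 near *RASSF8* and at LOC106503239. Their folds were 2.42 and 1.91 in the authors' deposited table. The latter region lay 27280 bp from an end of *OSBPL7*, of the oxysterol-binding protein family.

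Among regions that passed, the highest set 1 fold change was at LOC102180713. Its region on chromosome 3 at 107831101 to 107831500 differed 6.03-fold by the authors' deposited table (FDR = 0.00152). That region lay 41551 bp from an end of the cell adhesion gene *KIRREL*. The *KRT8* neighbour was also among the highest, at a fold of 4.48 by the authors' deposited table. LOC102168792 near *FGGY*, a carbohydrate kinase gene, came below it with a region of 800 bp and a fold of 3.88 by the authors' deposited table (FDR = 0.00153). After it came LOC106502481 near *ALDH8A1*, an aldehyde dehydrogenase gene, at a fold of 3.71 by the authors' deposited table (FDR = 0.0162). Higher set 1 values were listed without passing, up to 8.21 at LOC102181949 near *PJA2* in the authors' deposited table (FDR = 0.0655).

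In set 2 only 4 regions at lncRNA gene ends passed, each at a different lncRNA gene. LOC102180828 lies near *STAT6*, the transcription factor of interleukin 4 and 13 signalling. Its region on chromosome 5 at 55645801 to 55646500, outside the lncRNA gene and 7057 bp from an end of *STAT6*, was 3.59-fold in the authors' deposited table (p = 1.95e-11, FDR = 4.21e-06). LOC102181650 near *INPP5A*, an inositol phosphate phosphatase gene, had a region on chromosome 26 at 917701 to 918300 with a fold of 3.18 by the authors' deposited table (FDR = 0.00025). Another, at LOC102172137, lay 3404 bp from *TECR*, the last enzyme of very long chain fatty acid elongation, on chromosome 7 at 96657301 to 96657800, with a fold of 3.69 by the authors' deposited table (FDR = 0.0173). The last, at LOC108633890 near *SNN*, the stannin gene, on chromosome 25 at 10244101 to 10244800, had a fold of 2.46 by the authors' deposited table (FDR = 0.0349). Their widths were 500 to 700 bp. The other 33 set 2 regions had fold changes from 1.29 to 8.33 and an FDR from 0.133 to 0.855 in the authors' deposited table, so that none of them passed.

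Few neighbours came from lists of genes with known roles in the gland. For 145 regions at lncRNA gene ends, a coding gene end lay within 50000 bp. Against 12 lists with 326 different genes for milk proteins, milk fat, hormone signalling, luminal and basal cells, involution, the cell cycle, matrix, endothelium, immune cells, adipocytes and neurons, 310 of which matched a coding gene, only *KRT8* and *FOXA1*, both of the luminal list, were nearest to 1 of them. That is 1.38% of the 145 regions, against 3.45% of 14508 regions over 3000 bp from coding ends and not at lncRNA ends; no test was made of this. The luminal list took 2 of the 145 regions, against 0.696% of the 14508 regions, and the other 11 lists took 0 each. Each of those 11 lists took at most 0.641% of the 14508 regions, so a count of 0 among 145 says little. *FOXA1* is a transcription factor of luminal hormone-sensing cells. The set 1 region of LOC106503369 beside it had a fold of 2.64 by the authors' deposited table and did not pass (FDR = 0.0705).

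Other neighbours were picked for their known roles after the values were seen, and all were in set 1. The region of LOC106502274, 4684 bp from *JUND*, a subunit of the AP-1 transcription factor, had a fold of 2.24 by the authors' deposited table (FDR = 0.00949). That of LOC106503671, 7181 bp from *DUSP4*, a phosphatase that turns off MAP kinases, had a fold of 2.62 by the authors' deposited table (FDR = 0.00638). LOC108637783, whose region lies inside *NRP2*, a receptor for semaphorins and vascular growth factors, had a fold of 2.14 by the authors' deposited table (FDR = 0.00173). LOC102169221 had a region of 1100 bp with a fold of 1.99 by the authors' deposited table (FDR = 0.0172). It lay 160924 bp from the transcriptional repressor gene *BCL6*. The region of LOC108633419, 84834 bp from *INHBB*, a subunit of activin B, had a fold of 2.31 by the authors' deposited table (FDR = 0.049).

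The nearest coding gene often had a listed region at its own ends as well. Of the 145 regions with a coding gene end within 50000 bp, 83 (57.2%, 49.1% to 65.0%) had a neighbour with a listed region within 3000 bp of one of its ends. This was so for 45.6% (44.8% to 46.4%) of the 14508 regions over 3000 bp from coding ends and not at lncRNA ends. By set the shares were 59.3% in set 1 (67 of 113; 50.1% to 67.9%) and 50.0% in set 2 (16 of 32; 33.6% to 66.4%). The background of the 14508 other regions was 49.3% in set 1 and 35.5% in set 2, and the set 2 background lies inside the lncRNA-end interval. Of the 16 set 2 regions, 14 had a neighbour with a set 1 region at its ends and 4 had one with a set 2 region. For the 67 set 1 regions these numbers were 63 and 6. Neighbours with set 1 regions also prevailed in the background. There the numbers were 1114 and 357 for 1388 set 2 regions, and 4901 and 502 for 5223 set 1 regions. The differences in these shares were not tested.

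At the edge of the definition, the regions just inside the 1000 bp limit were at LOC108633419 (990 bp) and LOC108633925 (980 bp), both in set 1, with fold changes of 2.31 and 3.33 in the authors' deposited table. Just outside it were set 1 regions 1001 bp from LOC102176322 and 1014 bp from LOC102180089, with folds of 3.19 and 2.83 in the authors' deposited table. The FDR was 0.049 and 0.164 for the regions inside the limit, and 0.249 and 0.00304 for those outside. The LOC102180089 region outside the limit thus passed, while the regions of that gene inside it did not (FDR = 0.126 and 0.209).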

How the data were processed

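Tools listed in the submitters' processing notes are Bowtie2 2.2.5 and MACS2, without their roles. The genome build, the handling of duplicates and of the Tn5 offset, and the program and windows of the comparison, were each not given in the sources used here. The authors deposited, per the file headers, a linear fold change (a ratio of 1 group over the other), a p-value and a Benjamini-Hochberg FDR (a q-value) per region. The deposited signal value, a score, was not used here. The width column holds another unit, bp, per the file headers. The table has no value per library, so no test across libraries was made; depth is unknown, and any spread behind the authors' p-values is that between these libraries and may be technical.

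Gene ends came from a RefSeq gene table of ARS1.2 with 1758 lncRNA and 19063 protein-coding genes on numbered chromosomes. It was used for names and neighbours, and none of its coordinates are printed. It gives no strand, exons or sequence. On 29 of 29 chromosomes, regions lay near coding gene ends most often with that chromosome's own genes. Region coordinates are the authors', counted from 1, and distances run from the region's centre, rounded down to whole bp. Densities used every allowed position of a 50 bp grid. Intervals are 95% Wilson or exact Poisson intervals. Distance functions were checked on simulated data. Analysis used Python 3.11.15, pandas 2.3.3 and scipy 1.17.1.

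The regions, gene lists and comparisons were chosen with earlier results of these data known. The named regions are the 10 per set with the smallest p and the 5 per set with the largest fold change among those at an FDR under 0.05, lncRNA genes with several regions or both sets, entries with a symbol other than a LOC number, regions at the distance limit, and neighbours in the lists. Because no gene had 3 regions within the 1000 bp limit that passed, genes with 3 listed regions there, or with 2 that passed, are named instead. That substitute, and the comparison with pseudogene and tRNA gene ends, were chosen after the values were seen. Some regions that the rule names are not reported here. Promoter sequences and motifs were not analysed here. The closing section gives the alternatives tried.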

Additional observations from a re-analysis of the deposited data

How the results depend on the processing

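The count of 64 regions at an FDR under 0.05 (60 in set 1, 4 in set 2) moved with its definition. It was 38 with lncRNA ends within 500 bp (36 in set 1, 2 in set 2) and 101 within 2000 bp (96 in set 1). Over 10000 bp from coding ends it was 32 (31 and 1), at an FDR under 0.01 it was 34 (32 and 2), and with 1 unadjusted p limit of 1e-05 for both sets it was 40 (36 in set 1). Without an FDR limit it was 183 (146 and 37). With lncRNA genes that overlap no coding gene, set 2 had 2 regions. The set 1 share stayed between 90.0% and 96.9% under every alternative except that without an FDR limit, where it was 79.8%. Over all listed regions it was 91.5% at an FDR under 0.05 and 74.4% without a limit. A high share is thus shared with the whole list and is no trait of lncRNA gene ends. The share over all listed regions is not given for the FDR limit of 0.01 or the p limit of 1e-05. In that setting set 1 had a median width of 300 bp, and set 2 one of 200 bp, against 400 and 650 bp at an FDR under 0.05, because narrower regions enter. The median fold change stayed within the 95% binomial interval of its main median in set 1 (1.93 to 2.42) under all 9 alternatives. In set 2 it lay within the range of the 4 regions that passed (2.46 to 3.69). Most alternatives keep those 4 set 2 regions or only some of them. Their set 2 median could not leave that range, so it says nothing of how stable the set 2 fold change is. No paired analysis was possible because the table holds no value per library, and for the same reason no library could be left out. Depth limits were not measurable.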

Other observations

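On sequences outside the numbered chromosomes the authors listed 736 regions on 73 sequences. They were not matched to lncRNA genes, and none of them enters the counts above.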
